A study of Mus musculus with 12 samples.

Results

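The sterol and fatty acid synthesis genes are 32 named genes of the enzymes that build cholesterol and long-chain fatty acids from acetyl-CoA, with the proteins that regulate them. They were chosen by name, and all 32 were found among the 21004 genes of the deposited table. All 32 also reached at least 1 FPKM in at least 3 libraries, as did 14675 genes in all. FPKM is the number of fragments of a gene relative to its transcript length and to all fragments mapped. The data are 12 RNA sequencing libraries of whole testis from ICR mice, an outbred strain, aged 8 weeks, in 4 groups of 3. They are labelled control, busulfan, L.J. given at a dose of 10 mg/kg, and the combination of busulfan with that same dose, called busulfan plus L.J. Busulfan, a DNA alkylating agent, kills germ cells that divide. The labels do not explain L.J., the series text also speaks of an FMT that it does not spell out, and neither busulfan's dose nor the time to sampling is stated in what was used here. The design addresses whether L.J. changes what busulfan does to the testis. Whether each library comes from its own animal is not stated, so p-values measure the spread between these libraries, which may be technical.

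In animal cells cholesterol is made from acetyl-CoA by way of mevalonate, isoprenoid diphosphates and squalene, and squalene is then closed into lanosterol and trimmed to cholesterol. Fatty acids are made from the same acetyl-CoA by a carboxylase and a synthase, and are then elongated and desaturated. Both routes are transcribed under SREBP factors, encoded by Srebf1 and Srebf2. The escort protein SCAP carries these factors to the Golgi when sterol is low, and INSIG proteins hold SCAP back when sterol is high. In the testis, Leydig cells use cholesterol for androgen, and Sertoli cells are rich in the desaturases that make polyunsaturated fatty acids. Meiotic and postmeiotic germ cells of rodents also transcribe several sterol enzymes, and Cyp51, whose product yields the meiosis-activating sterol FF-MAS, is the best known of these.

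SREBP factors bind sterol response elements and act beside NF-Y, which binds CCAAT, and Sp1, which binds GC boxes. RefSeq promoter sequences of GRCm38 were matched for 26 of the 32 genes, giving 32 promoters, and the 250 bases before each start were searched on both strands. The genes with no match were Fdps, Fdft1, Sqle, Scd1, Scd2 and Fads1. The 3 promoters printed here belong to Hmgcs1, with the single match to the sterol response element letters, and to Msmo1 and Cyp51, neighbouring sterol enzymes whose transcripts are compared below. Capitals mark CCAAT, or ATTGG where it lies on the other strand, and in Hmgcs1 also the sterol response element TCACCCCAC. They are chr13:119690101-119690350 on the plus strand, chr8:64733579-64733828 on the minus strand and chr5:4104698-4104947 on the minus strand.
Hmgcs1: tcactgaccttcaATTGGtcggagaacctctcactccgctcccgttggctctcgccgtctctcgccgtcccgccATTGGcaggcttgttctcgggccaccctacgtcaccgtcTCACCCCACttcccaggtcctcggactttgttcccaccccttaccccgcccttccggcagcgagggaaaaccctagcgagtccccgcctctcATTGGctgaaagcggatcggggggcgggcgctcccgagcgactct
Msmo1: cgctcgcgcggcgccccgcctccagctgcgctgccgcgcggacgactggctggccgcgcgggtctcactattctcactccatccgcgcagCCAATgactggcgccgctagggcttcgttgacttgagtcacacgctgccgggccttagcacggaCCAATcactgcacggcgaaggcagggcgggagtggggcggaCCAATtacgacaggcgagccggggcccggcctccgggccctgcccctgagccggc
Cyp51: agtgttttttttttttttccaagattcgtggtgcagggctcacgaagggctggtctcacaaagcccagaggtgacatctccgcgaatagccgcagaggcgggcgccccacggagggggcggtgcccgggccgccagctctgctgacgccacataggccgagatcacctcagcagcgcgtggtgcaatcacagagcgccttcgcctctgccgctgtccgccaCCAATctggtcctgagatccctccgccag

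Hmgcs1 and Msmo1 each held 3 CCAAT boxes and Cyp51 held 1. CCAAT was present in 21 of the 32 promoters (65.6%), against 33.8% of the 32851 promoters of the whole set. The GC box GGGCGG was present in 23 promoters (71.9%), against 32.7% of all. The E-box CACGTG was present in 5 (15.6%), against 6.02% of all, and the sterol response element TCACNCCAC in 1 (3.12%), against 1.05%. Some genes, such as Dhcr7 and Srebf1, have more than 1 promoter here, and the Scap windows overlap. By gene, CCAAT was present in 20 of 26 (76.9%) and the GC box in 21 (80.8%). The E-box was present in 5 genes (19.2%) and the sterol response element in 1 (3.85%). The shares of the whole set are by promoter only. None of the 4 motifs contains another. The matches describe letters in these windows only.

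Markers of testis cells set the frame for all that follows. The summed FPKM of the Sertoli markers was 1410 to 2750 in control, 1160 to 5860 in L.J., 638 to 729 in busulfan and 660 to 771 in busulfan plus L.J. Leydig markers summed to 3620 to 6160, 1120 to 4450, 1070 to 1450 and 1320 to 1620 in the same order. Elongating spermatid markers summed to 1630 to 7800, 4100 to 19600, 30000 to 35000 and 31400 to 40200, so the 6 libraries labelled with busulfan had the highest spermatid sums and the lowest Sertoli sums. Leydig sums were lower there than in every control, but that of L.J. replicate 2 was as low. Peritubular myoid sums were not lower (189 to 242, against 102 to 230 elsewhere), but there Actg2 made up most of them. Of the 5 myoid markers, 4 were lower in busulfan against control and 1, Actg2, was higher (median log2 change -1.56). Busulfan is known to deplete germ cells, whereas the spermatid sums were higher, not lower, under its label. Of 6 spermatogonia markers, 5 were lower in busulfan against control, as were 51.4% of all genes (median log2 changes -0.97 and -0.51). The labels could not be checked here, and the time to sampling is not stated. Every direction below is that of the libraries as labelled. If control and busulfan labels were exchanged, the directions of busulfan against control would turn. The other comparisons with either group would change as well. Control replicate 3 had the highest sums of adipocyte markers (284, others 11.8 to 72.6) and epididymal markers (530, others 0.2 to 38.1). Busulfan plus L.J. replicate 1 had the highest sum of liver markers, a list written after the data were seen (161, others 3.85 to 36.8). In whole testis, fewer cells of a type and less RNA per cell cannot be told apart.

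In libraries labelled busulfan against control, 27 of the 32 genes were lower and 0 were higher (limma on log2(FPKM + 1), Benjamini-Hochberg adjusted over 14675 genes, threshold 0.05). Of all genes tested, 51.4% were lower and 12.4% were higher. The median log2 change was -1.37 over the 32 genes and -0.51 over all genes. The control and busulfan libraries did not overlap for 29 of the 32 genes in the lower direction and for 1, Fdft1, in the higher, against 60.7% and 16.1% of all genes. The 5 genes that did not pass were Pmvk, Fdft1, Sqle, Cyp51 and Acaca. Without control replicate 3 and busulfan plus L.J. replicate 1, a choice made after the data were seen, 20 were lower and the median was -1.22. In that fit 2413 of all 14675 genes were lower, and 7536 with every library kept. How many genes passed, and in which direction, depended on the scale. The median of the 32 genes lay below that of all genes at each scale used. With each library scaled to its median gene, which moved the median of all genes to 0.01, 21 genes were lower and 1 was higher, and with quantile normalization (median of all genes -0.16) 20 were lower and 1 was higher. Scaled to the Sertoli markers (median of all genes 0.97), 0 were lower and 4 were higher, and the median of the 32 was 0.01. At these scales 13.5%, 18.8% and 0.164% of all genes were lower, and 21.2%, 16.7% and 40.9% higher.

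**Figure D1:**
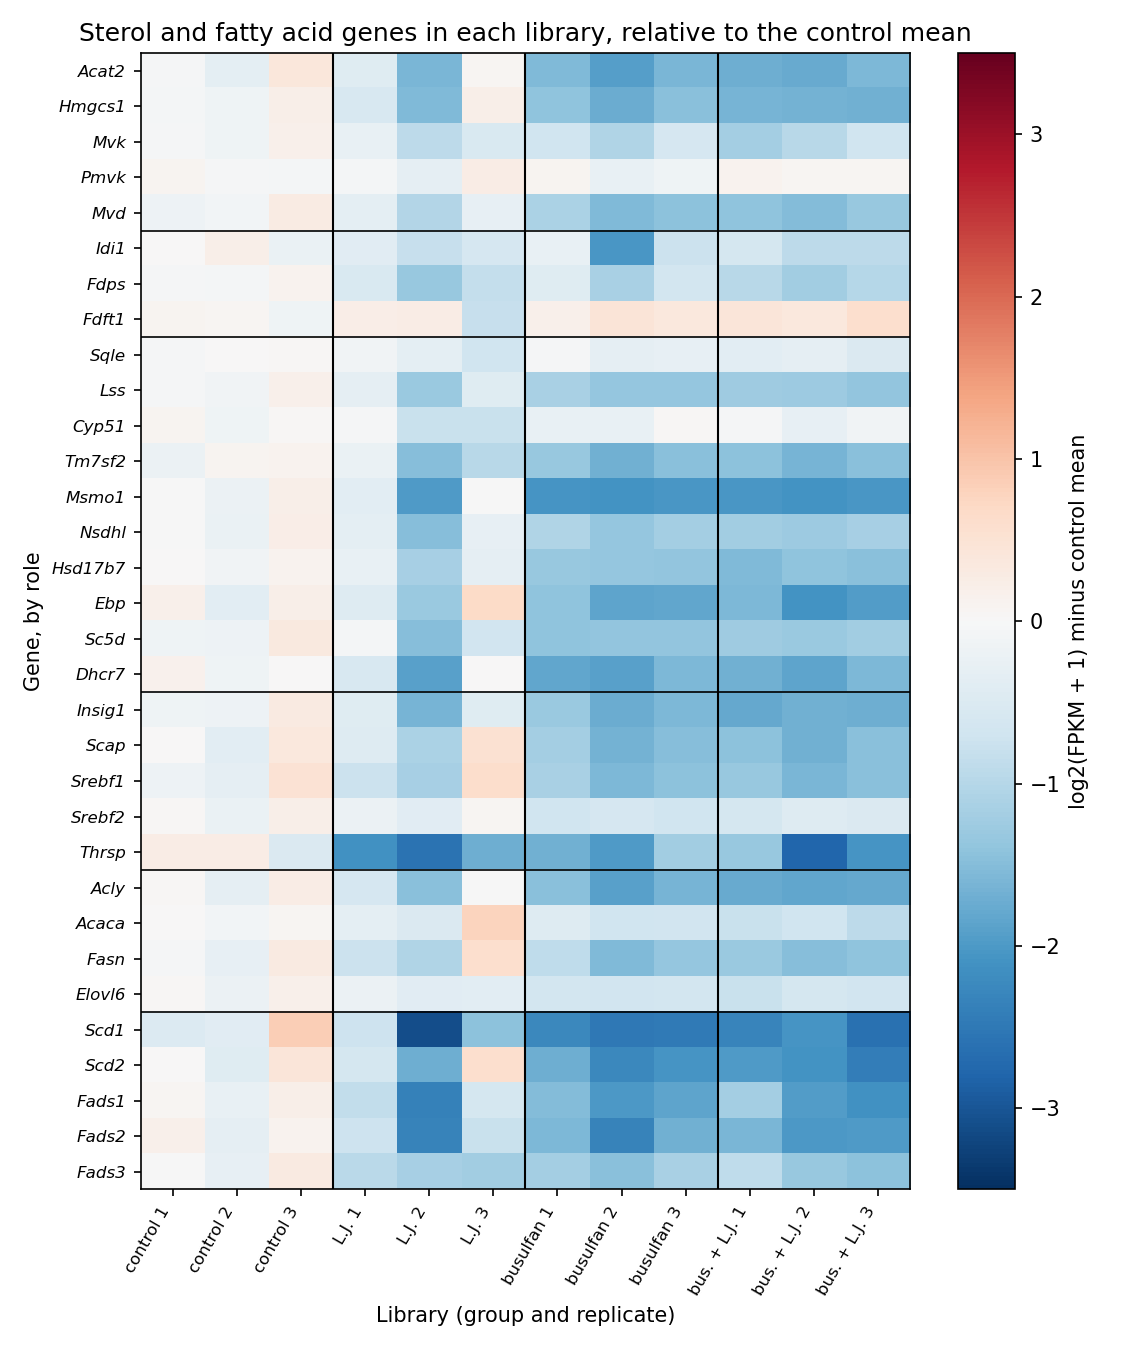
Each row is a gene, grouped by role, and each column a library. Colour gives log2(FPKM + 1) minus the mean of the control libraries, as deposited. Most rows are blue in all 6 libraries with busulfan and in L.J. replicate 2. Pmvk, Fdft1, Sqle and Cyp51 stay pale or turn red with busulfan. In busulfan against control the median of the 32 genes is -0.9 under median scaling, -0.85 under quantile normalization and 0.01 scaled to Sertoli markers.

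Of the 5 genes from acetyl-CoA to mevalonate diphosphate and its decarboxylation, 4 were lower in busulfan and the group's median log2 change was -1.37. That median was -0.91 under median scaling, -0.85 under quantile normalization and 0.16 scaled to Sertoli markers. Acat2, the cytosolic thiolase that joins acetyl-CoA units, opens the route (gene 110460; chr17:12943042-12960725, GRCm38 as for all positions here). Acat2 was at 16.7, 13.3 and 23.0 FPKM in the control libraries, 12.5, 4.96 and 18.0 in L.J., 5.20, 3.81 and 5.02 in busulfan, and 4.57, 4.40 and 5.11 in busulfan plus L.J. The lowest control library lay above every busulfan library, with a log2 change ± SE of -1.69 ± 0.35 (adjusted p = 0.00454). Acat3 is a near-identical neighbour, so the single value of Acat2 is uncertain. Hmgcs1, the cytosolic HMG-CoA synthase (gene 208715; chr13:119690351-119708260), followed the same order. Hmgcs1 was at 82.3, 77.2 and 99.6 FPKM in the control libraries, 58.0, 28.7 and 99.96 in L.J., 31.8, 25.2 and 30.8 in busulfan, and 27.0, 26.8 and 26.3 in busulfan plus L.J. Busulfan libraries were at about the level of L.J. replicate 2 and below all others of control and L.J., with a change of -1.53 ± 0.33 (adjusted p = 0.00507). Mvk and Mvd, the mevalonate kinase and the mevalonate diphosphate decarboxylase, changed by -0.79 ± 0.21 (adjusted p = 0.01) and -1.37 ± 0.22 (adjusted p = 0.00381). Mvk did not pass under median scaling (-0.32, adjusted p = 0.187) or quantile normalization (-0.23, adjusted p = 0.335). Mvd had means ± SD of 5.29 ± 1.14 FPKM in control and 1.43 ± 0.40 in busulfan (n = 3 each).

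Pmvk, the phosphomevalonate kinase that acts between Mvk and Mvd (gene 68603; chr3:89454541-89469014), did not pass. Pmvk was at 7.63, 6.94 and 6.82 FPKM in the control libraries, 6.72, 5.52 and 8.74 in L.J., 7.68, 5.83 and 6.38 in busulfan, and 7.79, 7.53 and 7.51 in busulfan plus L.J. All 12 values lay between 5.52 and 8.74, and the groups overlapped. Its log2 change in busulfan was -0.10 ± 0.17 (adjusted p = 0.621), with a 95% interval of -0.46 to 0.27. Under median scaling Pmvk was higher, by 0.45 (adjusted p = 0.0124), and under quantile normalization by 0.47 (adjusted p = 0.00965).

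Of the 3 genes from isopentenyl diphosphate to squalene, 2 were lower, and the median log2 change was -0.74. That median was -0.13 under median scaling, -0.47 under quantile normalization and 0.93 scaled to Sertoli markers. Idi1, the isopentenyl diphosphate isomerase (gene 319554; chr13:8885606-8892396), was spread widely within busulfan. Idi1 was at 6.79, 7.81 and 5.56 FPKM in the control libraries, 4.84, 3.42 and 4.12 in L.J., 5.37, 0.88 and 3.54 in busulfan, and 3.97, 3.05 and 3.04 in busulfan plus L.J. Busulfan replicate 2 was the lowest library and busulfan replicate 1 lay just below control replicate 3. The change of -1.02 ± 0.35 (adjusted p = 0.0269) did not pass without control replicate 1, control replicate 2 or busulfan replicate 2 (adjusted p up to 0.0751), and it was -0.51 without busulfan replicate 2. Fdps makes farnesyl diphosphate, the branch point to sterols, dolichol and prenylated proteins (gene 110196; chr3:89093588-89101967). Fdps was at 31.9, 31.3 and 36.4 FPKM in the control libraries, 22.7, 12.6 and 18.0 in L.J., 24.2, 14.6 and 20.8 in busulfan, and 16.4, 13.6 and 16.1 in busulfan plus L.J. Every busulfan library lay below every control library, and the lowest value was in L.J. replicate 2. The change of -0.74 ± 0.22 (adjusted p = 0.0144) did not pass without control replicate 3 or busulfan replicate 2 (adjusted p up to 0.0608). Nor did it under median scaling (-0.13, adjusted p = 0.59) or quantile normalization (-0.50, adjusted p = 0.0648), and likewise Idi1 had -0.53 (adjusted p = 0.233) and -0.47 (adjusted p = 0.293).

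Fdft1, squalene synthase, the first enzyme committed to sterols (gene 14137; chr14:63145150-63181687), had higher values with busulfan than in control. Fdft1 was at 109, 107 and 93.2 FPKM in the control libraries, 122, 124 and 58.2 in L.J., 117, 140.2 and 134 in busulfan, and 138, 132 and 156 in busulfan plus L.J. All 6 libraries with busulfan lay above all 3 controls, and L.J. replicate 3 was the lowest. The log2 change in busulfan of 0.34 ± 0.25 (adjusted p = 0.248) did not pass, with a 95% interval of -0.21 to 0.88. Without L.J. replicate 3 its adjusted p was 0.0217, and in a fit of the 2 groups alone it was 0.0443.

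Of the 10 genes from squalene to cholesterol, 8 were lower, with a median log2 change of -1.37. Under median scaling and quantile normalization 8 were lower again (medians -0.85 and -0.895), against 13.5% and 18.8% of all genes. Scaled to Sertoli markers 0 were lower and 1 was higher (median 0.03), against 0.164% and 40.9% of all genes. Msmo1, the sterol C4-methyl oxidase (gene 66234; chr8:64718123-64733578), had the largest change of the sterol route. Msmo1 was at 57.2, 49.5 and 66.4 FPKM in the control libraries, 43.8, 13.7 and 56.8 in L.J., 13.0, 12.6 and 13.2 in busulfan, and 13.2, 12.7 and 13.2 in busulfan plus L.J. The 6 libraries with busulfan lay within 1 FPKM of each other and below all others, with L.J. replicate 2 just above them. Its change was -2.07 ± 0.38 (adjusted p = 0.00386). Dhcr7, the 7-dehydrocholesterol reductase that completes cholesterol (gene 13360; chr7:143823167-143848410), showed the same split. Dhcr7 was at 38.8, 30.8 and 34.7 FPKM in the control libraries, 23.3, 8.56 and 35.1 in L.J., 9.02, 8.46 and 11.1 in busulfan, and 10.0, 8.83 and 11.0 in busulfan plus L.J. L.J. replicate 2 was within the busulfan range, and the other control and L.J. libraries were above it, with a change of -1.77 ± 0.36 (adjusted p = 0.00455).

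The remaining 6 genes that passed were Lss, the cyclase that forms lanosterol (-1.28 ± 0.23, adjusted p = 0.00381), Tm7sf2, a C14 reductase (-1.49 ± 0.26, adjusted p = 0.00381), Nsdhl, a C4 decarboxylase (-1.20 ± 0.27, adjusted p = 0.0057), Hsd17b7, the C3 ketoreductase (-1.35 ± 0.22, adjusted p = 0.00381), Ebp, the sterol isomerase (-1.69 ± 0.39, adjusted p = 0.00609), and Sc5d, the C5 desaturase (-1.39 ± 0.29, adjusted p = 0.0045). Their control means ranged from 5.19 to 26.6 FPKM and their busulfan means from 1.43 to 10.9. In each of these 6 genes the control and busulfan libraries did not overlap, and 60.7% of all genes were likewise lower without overlap.

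Sqle and Cyp51 were the exceptions in the same stretch of the route. Sqle, squalene epoxidase (gene 20775; chr15:59315092-59331193), is an oxygen-dependent and rate-controlling step. Sqle was at 37.7, 38.9 and 39.8 FPKM in the control libraries, 35.6, 30.1 and 23.4 in L.J., 37.4, 31.0 and 31.4 in busulfan, and 29.9, 31.1 and 26.9 in busulfan plus L.J. Control and busulfan were separated by less than 1 FPKM, and L.J. replicate 3 was the lowest. The log2 change was -0.22 ± 0.15 (adjusted p = 0.224), with a 95% interval of -0.56 to 0.12. Cyp51, the lanosterol 14-alpha demethylase that acts shortly before Msmo1 (gene 13121; chr5:4080674-4104697), overlapped between groups. Cyp51 was at 30.3, 25.3 and 28.8 FPKM in the control libraries, 27.1, 15.8 and 16.0 in L.J., 23.2, 23.1 and 29.2 in busulfan, and 27.4, 22.7 and 25.6 in busulfan plus L.J. The lowest values were those of L.J. replicates 2 and 3, and busulfan replicate 3 exceeded control replicates 2 and 3. Its value was -0.16 ± 0.20 (adjusted p = 0.492), with a 95% interval of -0.59 to 0.27. Scaled to the library median, Sqle and Cyp51 had changes of 0.39 and 0.45, and under quantile normalization of -0.11 and 0.07.

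**Figure D2:**
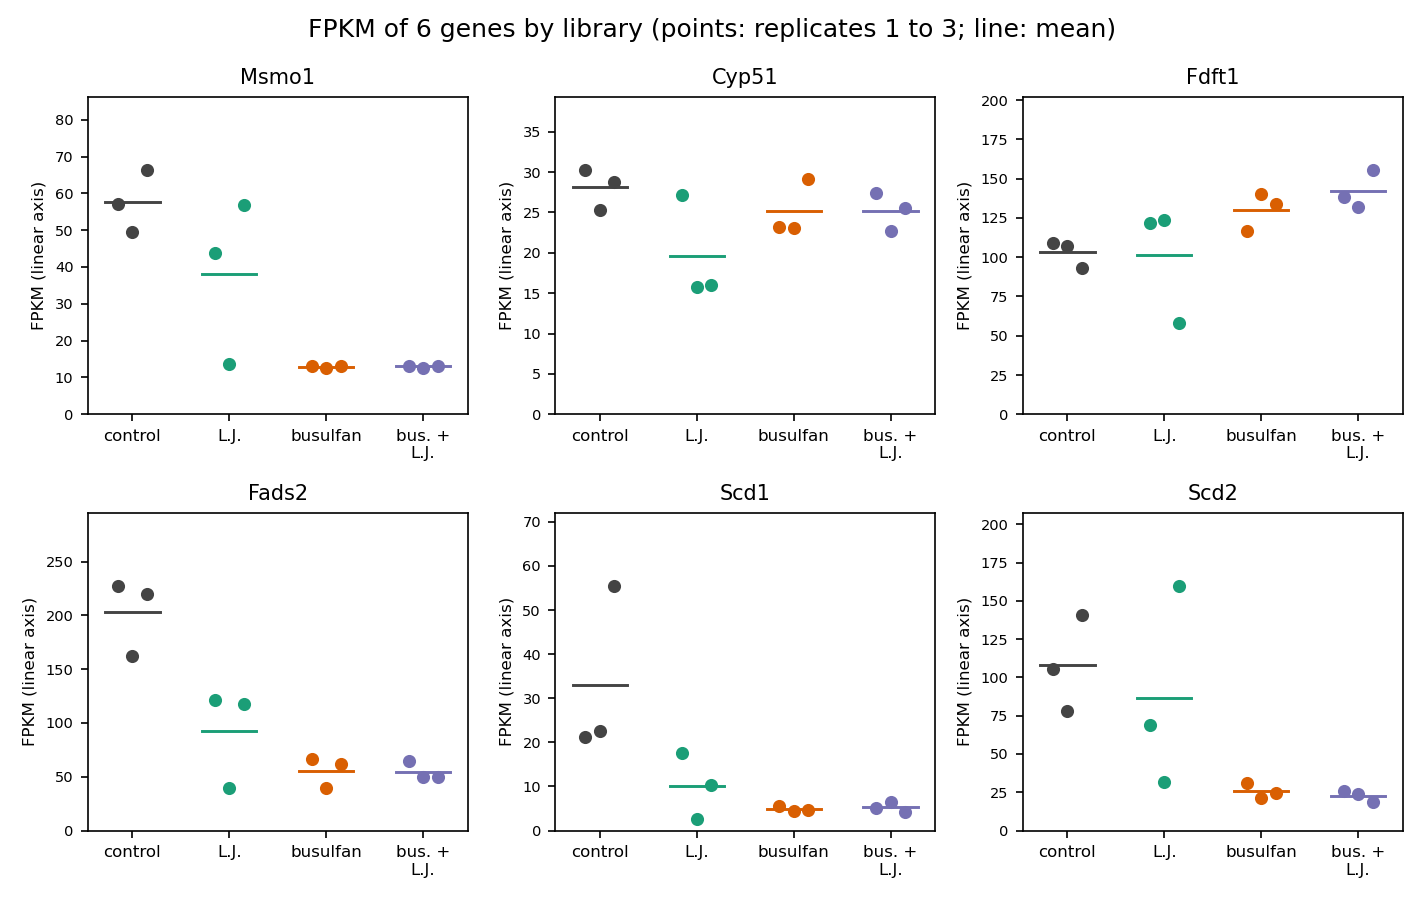
FPKM, on linear axes from 0, of Msmo1, Cyp51, Fdft1, Fads2, Scd1 and Scd2 in each library (points, replicates 1 to 3 from left to right) with group means (lines). Msmo1 falls to 12.6 to 13.2 in all libraries with busulfan, while Cyp51 stays between 22.7 and 29.2 there and Fdft1 between 117 and 155.7.

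Ratios of 2 enzymes within a library, from FPKM as deposited, do not change when a library is scaled by a single factor, though quantile normalization alters them. The pairs set a gene that did not pass against one that did, chosen after their values were seen, so the ratios only restate those values on such a scale. Cyp51 to Msmo1 was 0.434 to 0.53 in control, 0.281 to 1.15 in L.J., 1.78 to 2.21 in busulfan and 1.79 to 2.08 in busulfan plus L.J. Sqle to Lss was 4.1 to 5.08, 3.87 to 10.4, 11.3 to 11.6 and 10.0 to 10.6 in that order. Both ratios thus separated control from the libraries with busulfan without overlap. Pmvk to Mvd was 1.03 to 1.7, 1.72 to 2.67, 4.09 to 5.21 and 5.04 to 6.33. Fdft1 to Fdps was 2.56 to 3.42, 3.23 to 9.8, 4.82 to 9.63 and 8.43 to 9.69. These too were higher in every busulfan library than in any control library. Fads2 to Scd2, taken as a pair of genes that both passed, overlapped between control (1.56 to 2.15) and busulfan (1.84 to 2.53). Spermatid transcripts, higher in the same libraries, stand beside all of these ratios, and their part in them was not tested.

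**Figure D3:**
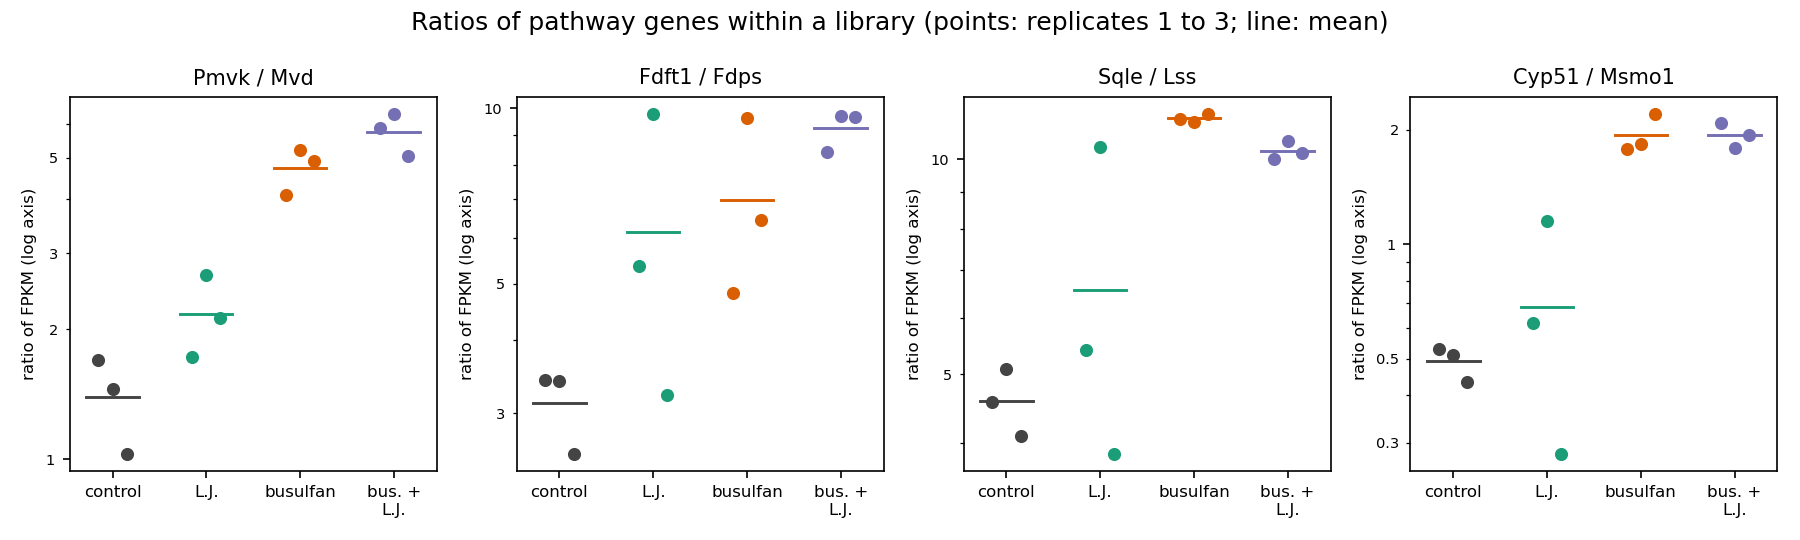
Ratio of the FPKM of 2 enzymes of the sterol route within each library on log axes, by group, for the 4 pairs named in the panels (points, replicates 1 to 3; lines, means). The Cyp51 to Msmo1 ratio lies at 0.434 to 0.53 in control and at 1.78 to 2.21 in busulfan, with L.J. spread from 0.281 to 1.15.

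All 5 regulators were lower in busulfan, with a median log2 change of -1.45. That median was -0.91 under both median scaling and quantile normalization, and -0.02 scaled to Sertoli markers. Thrsp, a small nuclear and cytosolic protein that promotes fatty acid synthesis in liver and fat (gene 21835; chr7:97412933-97417550), had the largest change. Thrsp was at 9.14, 9.16 and 5.06 FPKM in the control libraries, 0.96, 0.42 and 1.59 in L.J., 1.67, 1.16 and 2.67 in busulfan, and 2.40, 0.26 and 1.03 in busulfan plus L.J. Every library with L.J., busulfan or both lay below every control, with a change in busulfan of -1.63 ± 0.37 (adjusted p = 0.00569), which quantile normalization reduced to -1.08 (adjusted p = 0.0534). Insig1, the sterol-regulated anchor of SCAP and itself an SREBP target (gene 231070; chr5:28071412-28078662), was next. Insig1 was at 12.7, 12.4 and 17.7 FPKM in the control libraries, 10.3, 3.85 and 10.2 in L.J., 5.11, 3.54 and 4.09 in busulfan, and 3.40, 3.74 and 3.65 in busulfan plus L.J. L.J. replicate 2 lay within the busulfan range and all other control and L.J. libraries above it, with a change of -1.54 ± 0.29 (adjusted p = 0.00393). Scap, the escort, changed by -1.45 ± 0.34 (adjusted p = 0.0065). Of the factors, Srebf1, which favours fatty acid genes, changed by -1.38 ± 0.38 (adjusted p = 0.0108), and Srebf2, which favours sterol genes, by -0.66 ± 0.16 (adjusted p = 0.00704). Means ± SD were 6.07 ± 2.28 and 1.66 ± 0.43 FPKM for Srebf1 and 13.0 ± 2.06 and 7.82 ± 0.33 for Srebf2, in control and busulfan. Srebf2 did not pass under median scaling (-0.09, adjusted p = 0.587) or quantile normalization (-0.15, adjusted p = 0.334).

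Of the 4 genes of fatty acid synthesis, 3 were lower in busulfan, with a median log2 change of -0.96. That median was -0.44 under median scaling, -0.405 under quantile normalization and 0.49 scaled to Sertoli markers. Acly, ATP citrate lyase, supplies cytosolic acetyl-CoA to both routes (gene 104112; chr11:100476352-100528000). Acly was at 36.8, 29.0 and 43.7 FPKM in the control libraries, 23.4, 12.6 and 35.9 in L.J., 12.5, 9.01 and 11.0 in busulfan, and 9.93, 9.53 and 9.61 in busulfan plus L.J. The busulfan libraries lay below all control libraries, with a change of -1.66 ± 0.30 (adjusted p = 0.00381). Fasn, the fatty acid synthase (gene 14104; chr11:120805958-120825166), was highest outside the controls. Fasn was at 12.5, 10.4 and 16.3 FPKM in the control libraries, 7.21, 5.75 and 19.8 in L.J., 6.45, 3.78 and 4.44 in busulfan, and 4.67, 3.98 and 4.23 in busulfan plus L.J. Its highest value was that of L.J. replicate 3, and the control and busulfan libraries did not overlap, with a change of -1.26 ± 0.35 (adjusted p = 0.0115). Under median scaling (-0.71) and quantile normalization (-0.73) its adjusted p was 0.0523 and 0.0692. Elovl6, which elongates palmitate, changed by -0.65 ± 0.15 (adjusted p = 0.00572) from 4.46 ± 0.70 to 2.46 ± 0.05 FPKM, and did not pass under median scaling (-0.17, adjusted p = 0.341) or quantile normalization (-0.08, adjusted p = 0.689).

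Acaca, the acetyl-CoA carboxylase that commits carbon to fatty acids (gene 107476; chr11:84129635-84401651), was also lower in value. Acaca was at 13.0, 11.9 and 13.6 FPKM in the control libraries, 9.91, 8.66 and 22.5 in L.J., 9.17, 7.51 and 7.74 in busulfan, and 7.06, 7.58 and 6.31 in busulfan plus L.J. Control and busulfan libraries did not overlap, and L.J. replicate 3 was the highest. The log2 difference of -0.60 ± 0.27 (adjusted p = 0.0719) did not reach the threshold, but passed when L.J. replicate 2 or 3 was left out, and in a fit of the 2 groups alone its adjusted p was 0.0047.

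All 5 desaturases were lower in busulfan, with a median log2 change of -1.87, and the control and busulfan libraries overlapped for none of them. Of all genes 51.4% were lower, and 60.7% were lower without overlap. All 5 were also lower under median scaling (median -1.24) and quantile normalization (-2.01), against 13.5% and 18.8% of all genes. Scaled to Sertoli markers 0 were lower (median -0.16), against 0.164% of all genes. Scd1 and Scd2 place the first double bond in stearate and palmitate (gene 20249; chr19:44394450-44407709, and gene 20250; chr19:44293676-44306864). Scd1 was at 21.2, 22.5 and 55.4 FPKM in the control libraries, 17.6, 2.59 and 10.4 in L.J., 5.53, 4.49 and 4.59 in busulfan, and 5.19, 6.45 and 4.09 in busulfan plus L.J. Control replicate 3 was the highest, at 2.46 times the second highest library, and it also held the most adipocyte RNA. The change of -2.40 ± 0.51 (adjusted p = 0.00489) was -1.97 without that library. Scd2 was at 106, 78.2 and 141 FPKM in the control libraries, 68.6, 31.7 and 159.6 in L.J., 31.3, 21.3 and 24.4 in busulfan, and 26.0, 23.9 and 18.7 in busulfan plus L.J. Here L.J. replicate 3 was the highest and the busulfan libraries were below all others of control and L.J., with a change of -2.01 ± 0.45 (adjusted p = 0.0054). Scd1 and Scd2 are close paralogs, so how reads were shared between them is uncertain.

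Fads2 and Fads1 are the delta-6 and delta-5 desaturases of polyunsaturated fatty acids, and Fads3 is a paralog in the same cluster (gene 56473; chr19:10062765-10101503, gene 76267; chr19:10182877-10196874, and gene 60527; chr19:10040855-10060113). Fads2 was at 227, 162 and 219.6 FPKM in the control libraries, 121, 39.2 and 117 in L.J., 66.3, 39.2 and 61.8 in busulfan, and 65.0, 49.6 and 49.7 in busulfan plus L.J. The change in busulfan was -1.87 ± 0.38 (adjusted p = 0.0043). Fads1 was at 90.6, 72.9 and 99.8 FPKM in the control libraries, 47.9, 16.2 and 56.6 in L.J., 29.6, 20.9 and 23.4 in busulfan, and 37.6, 21.6 and 19.3 in busulfan plus L.J. Control libraries were above all others for both genes, and L.J. replicate 2 was within or below the range of busulfan. Fads1 changed by -1.79 ± 0.39 (adjusted p = 0.00528) and Fads3 by -1.27 ± 0.20 (adjusted p = 0.00381). Beside these genes, all 13 Sertoli markers were lower in busulfan (median -1.53), as were all 7 Leydig markers (median -1.84), 5 of 6 meiotic markers (median -0.60) and 5 of the 6 adipocyte markers tested, of 10 listed (median -1.75). All 8 elongating spermatid markers were higher (median 3.28). Of 9 liver markers tested, 0 passed by limma (median -0.97). The part of these cell contents in the result was not tested.

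**Figure D4:**
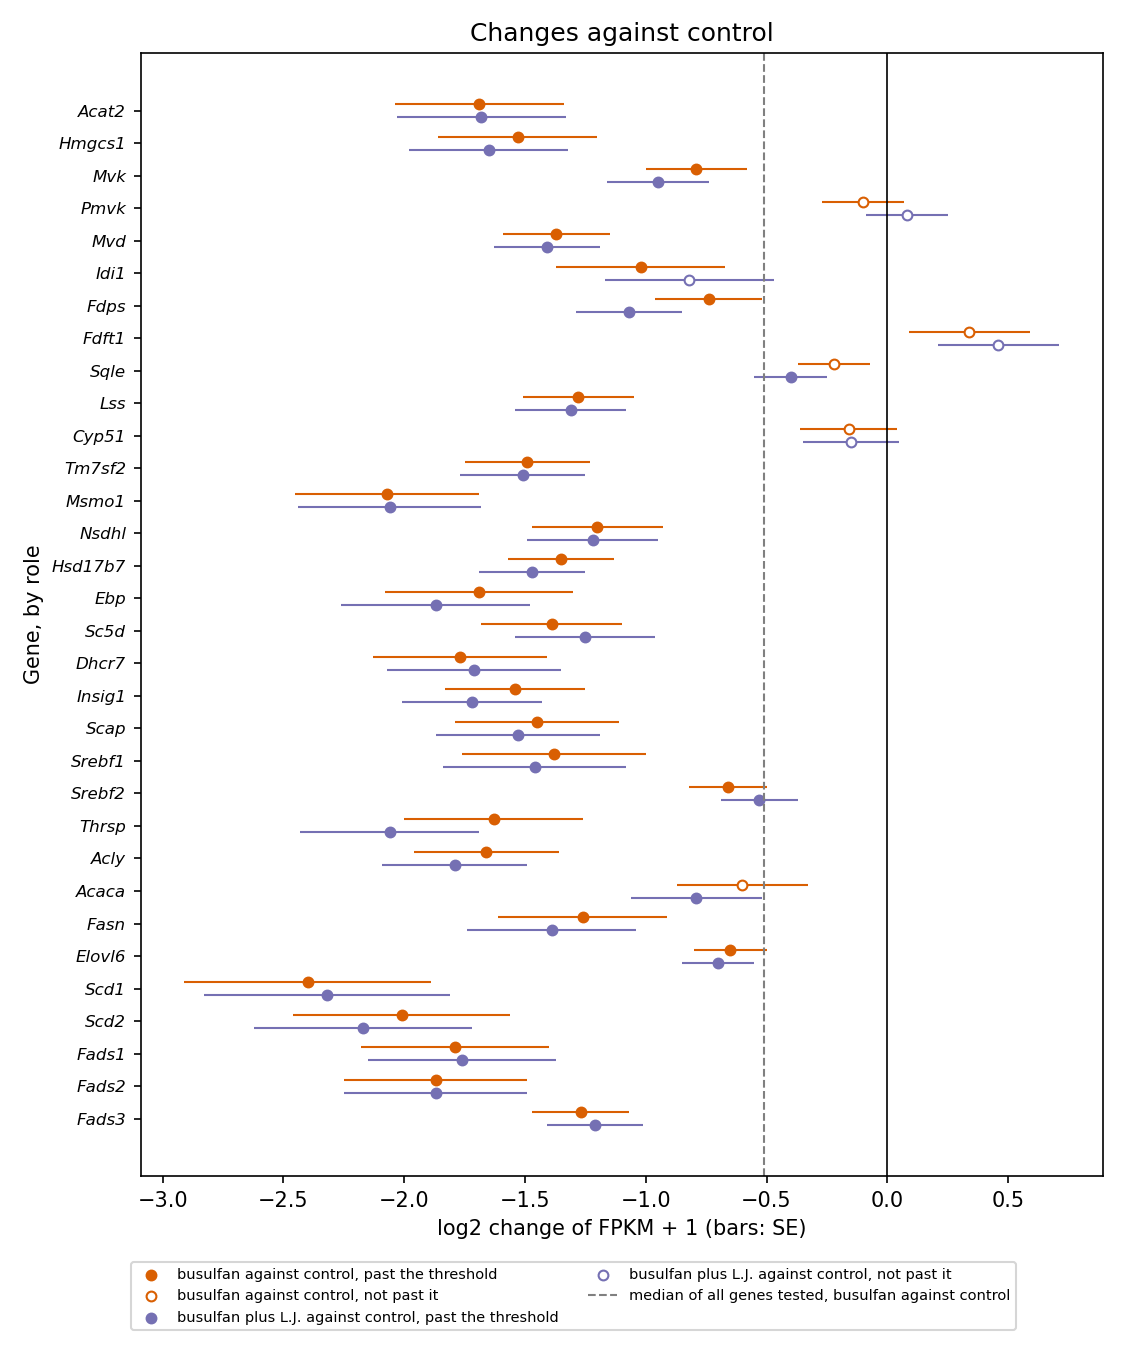
Log2 change of each gene against control (points, with SE as bars), as deposited, for busulfan given alone and together with L.J., which share their controls. Filled points passed the threshold, and the dashed line is the median of all genes in busulfan against control, -0.51. In busulfan the changes run from -2.40 (Scd1) to 0.34 (Fdft1). Their median is -0.9 under median scaling, -0.85 under quantile normalization and 0.01 scaled to Sertoli markers.

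Other genes of these pathways were counted from lists. Of 20 listed genes of sterol transport, storage and sensing, 18 were tested, of which 14 were lower and 1 was higher in busulfan, with a median log2 change of -0.92, against 51.4% and 12.4% of all genes and a median of -0.51. The lowest were Cyp27a1, the sterol 27-hydroxylase (-1.50 ± 0.35, adjusted p = 0.00605), and Npc2, which moves cholesterol out of the lysosome (-1.47 ± 0.37, adjusted p = 0.00787). Lipe, the hormone-sensitive lipase that also hydrolyses sterol esters, was higher (2.48 ± 0.46, adjusted p = 0.00387). Of 31 listed genes of fatty acid synthesis, elongation, activation and triglyceride assembly, 28 were tested, of which 16 were lower and 3 were higher, with a median of -0.62, so their shares were near those of all genes. Hsd17b12, the ketoacyl reductase of elongation, and Mid1ip1, a partner of acetyl-CoA carboxylase, were lowest (-1.74 ± 0.35, adjusted p = 0.00442 and -1.64 ± 0.40, adjusted p = 0.00717, respectively). Acsl1 and Acsl5, acyl-CoA synthetases, were higher (2.08 ± 0.36, adjusted p = 0.00381 and 1.11 ± 0.19, adjusted p = 0.00381, respectively), as was Dgat2 (1.09 ± 0.28, adjusted p = 0.00857), which makes triglycerides.

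Adding L.J. to busulfan left no gene of either route past the threshold. Against busulfan, busulfan plus L.J. gave 0 of the 32 genes by limma, and 0 of 14675 genes in all (0%). At an unadjusted p under 0.05 the counts were 0 of 32 and 109 of 14675 (0.743%). The median log2 change was -0.04 over both the 32 genes and all genes, and the 32 genes ranged from -0.43 (Thrsp) to 0.19 (Idi1). Msmo1 was at 13.0, 12.6 and 13.2 FPKM in busulfan and 13.2, 12.7 and 13.2 in busulfan plus L.J. Hmgcs1 was at 31.8, 25.2 and 30.8 FPKM in busulfan and 27.0, 26.8 and 26.3 in busulfan plus L.J. Libraries of the groups interleaved for both, with changes of 0.01 ± 0.38 (95% interval -0.82 to 0.84) and -0.12 ± 0.33 (-0.84 to 0.60). The narrowest interval was that of Elovl6, -0.37 to 0.27, and the widest that of Scd1, -1.05 to 1.20, and differences within these intervals could not be detected at this spread. Fdps had the lowest unadjusted p, 0.163, with a change of -0.33. The groups did not overlap for 1 gene in the higher direction, Sc5d, and for 1 in the lower, Hsd17b7, against 3.39% and 5.19% of all genes. Sc5d was at 6.74, 6.86 and 6.99 FPKM in busulfan and 7.73, 7.43 and 7.86 in busulfan plus L.J., a change of 0.14, and Hsd17b7 at 1.47, 1.43 and 1.39 FPKM in busulfan and 1.13, 1.34 and 1.22 in busulfan plus L.J., a change of -0.12.

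L.J. alone, against control, gave lower values of many of these genes in part of its libraries, but no call. Of the 32 genes 0 passed by limma, as did 0 of 14675 (0%), and at an unadjusted p under 0.05 the counts were 18 of 32 and 715 of 14675 (4.87%). The groups did not overlap for 15 of the 32 genes, all lower in L.J., against 7.97% of all genes lower and 1.10% higher. The median log2 change was -0.61 over the 32 and -0.11 over all genes, and leaving out L.J. replicate 2 gave -0.31 and L.J. replicate 3 gave -0.89. L.J. replicate 2 was the lowest of all 12 libraries for 8 genes, and L.J. replicate 3 was the highest for 8 and the lowest for 2, Fdft1 and Sqle. The Leydig sums of these libraries were 1120 and 4450, and their Sertoli sums 1160 and 5860. Insl3, at 3522 FPKM, made up most of the Leydig sum of L.J. replicate 3. In that library Star, Cyp11a1, Cyp17a1, Hsd3b6 and Lhcgr lay below every control, Insl3 within the control range and Hsd3b1 (490 FPKM) above it. The 7 Leydig markers had a median log2 change of -1.04 in L.J. against control. Of these 0 passed by limma, and 3 were lower without overlap. The part of these cell contents in the spread was not tested.

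Thrsp had the lowest p of the 32, with a log2 change of -2.15 ± 0.37 (limma, unadjusted p = 9.81e-05, adjusted p = 0.843), and every L.J. library lay below every control. The desaturases, singled out after their values were seen, had a median of -1.27, and 4 of the 5 did not overlap between groups. Of all genes 7.97% were lower in L.J. without overlap. Fads3 was at 4.01, 3.10 and 5.27 FPKM in control and 1.61, 1.26 and 1.16 in L.J., a log2 difference of -1.11 ± 0.20 (adjusted p = 0.843). Fads2, whose values are given above, had a difference of -1.28 ± 0.38 (adjusted p = 0.843) and Fads1 of -1.27 ± 0.39 (adjusted p = 0.843), and these became -0.75 and -0.73 without L.J. replicate 2. Scd1 had a difference of -1.76 ± 0.51 (adjusted p = 0.843), or -1.09 without that library, and Scd2, whose highest library was L.J. replicate 3, had -0.57 ± 0.45 (adjusted p = 0.848). Beside these, the 12 liver markers summed to 24.4 to 36.8 in control and 3.85 to 9.24 in L.J. That list was written after the data were seen, so this difference is description only. Adipocyte sums were 31.2, 72.6 and 284 in control and 47.3, 11.8 and 14.1 in L.J. The part of liver and adipocyte RNA in the values of Thrsp, Scd1 and the Fads genes was not tested.

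**Figure D5:**
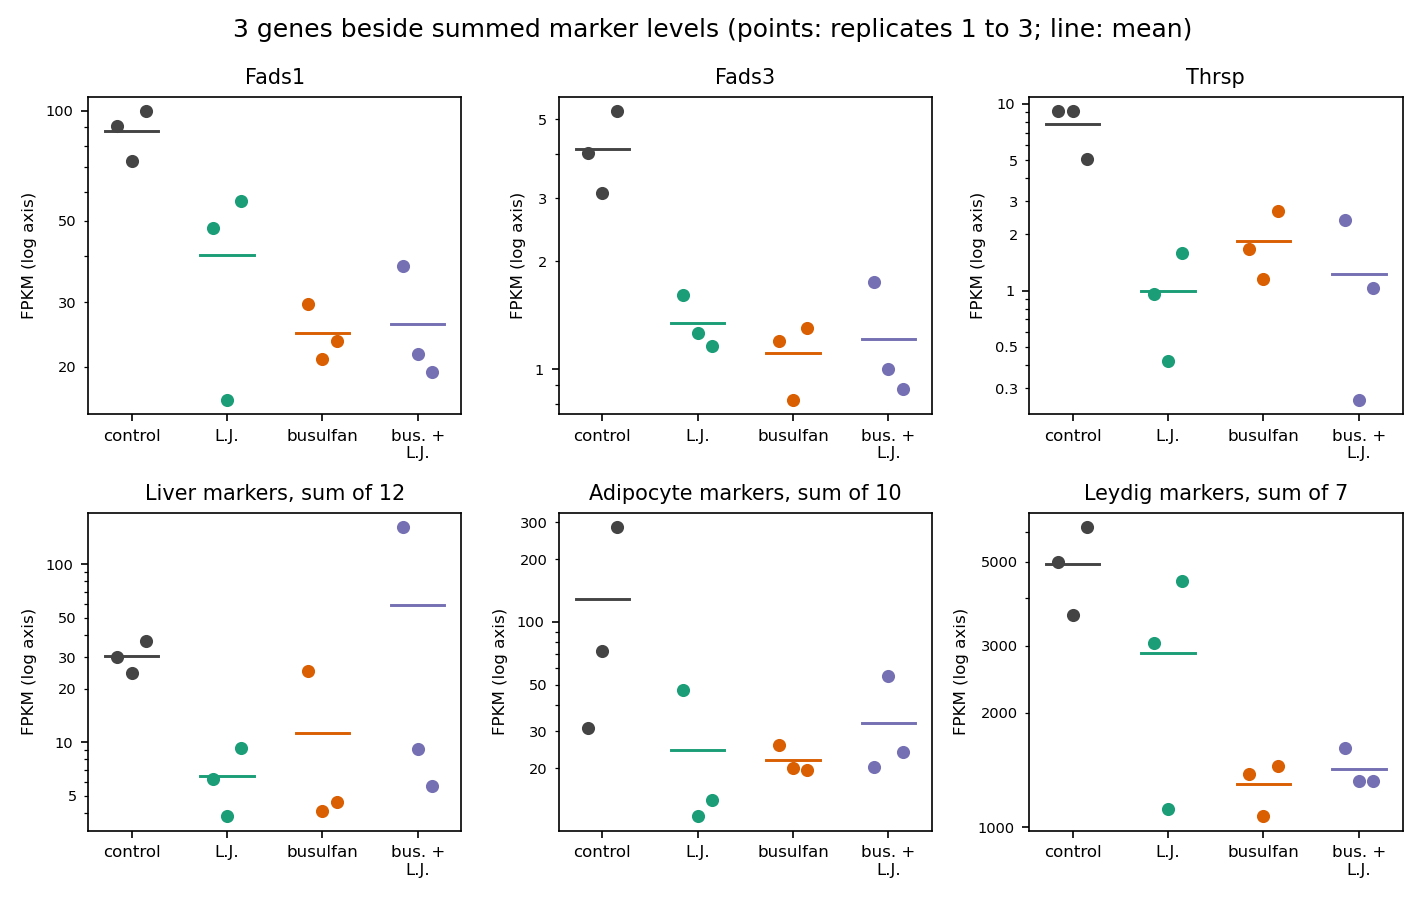
FPKM of Fads1, Fads3 and Thrsp (upper row) and summed FPKM of liver, adipocyte and Leydig markers (lower row) in each library on log axes, by group (points, replicates 1 to 3; lines, means). The 3 L.J. libraries lie below the 3 controls for all 3 genes and for the liver sum, 3.85 to 9.24 against 24.4 to 36.8, while the liver sum of busulfan plus L.J. replicate 1 is 161. The liver list was written after the data were seen.

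Busulfan plus L.J. against control gave 28 of 32 genes lower and 0 higher, against 53.5% of all genes lower and 13.0% higher, with a median of -1.44. This comparison shares its controls with busulfan against control. Without control replicate 3 and busulfan plus L.J. replicate 1, 19 were lower. Of all 14675 genes, 2571 were lower in that fit, and 7856 with every library kept. Sqle and Acaca, not called in busulfan alone, changed by -0.40 ± 0.15 (adjusted p = 0.0409) and -0.79 ± 0.27 (adjusted p = 0.0241), and both adjusted p-values lie near the threshold. Sqle did not pass when any library of control or of busulfan plus L.J., or busulfan replicate 3, was left out (adjusted p up to 0.125; log2 change -0.44 to -0.34), and Acaca when replicate 1 or 3 of control or of busulfan plus L.J. was left out (up to 0.0719; -0.85 to -0.73). Srebf2 (-0.53 ± 0.16, adjusted p = 0.0143) did not pass without control replicate 3 or busulfan plus L.J. replicate 1 (up to 0.068), and its sign turned under quantile normalization (0.02) and median scaling (0.09). The values of the 4 that did not pass were -0.82 ± 0.35 (adjusted p = 0.0574) for Idi1, 0.46 ± 0.25 (adjusted p = 0.12) for Fdft1, 0.08 ± 0.17 (adjusted p = 0.668) for Pmvk and -0.15 ± 0.20 (adjusted p = 0.511) for Cyp51. Idi1 passed without busulfan replicate 1 or 2, and Fdft1 without L.J. replicate 3. Under median scaling Fdft1 (1.13, adjusted p = 0.0278) and Pmvk (0.68, adjusted p = 0.00194) were higher, and under quantile normalization Pmvk was (0.69, adjusted p = 0.00272). Scaled to Sertoli markers, 0 were lower and 2 were higher, Pmvk (1.55) and Fdft1 (2.09), against 0.259% and 30.9% of all genes, and the median was -0.12.

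Against L.J. alone, busulfan plus L.J. gave 15 of 32 genes lower and 0 higher (39.8% of all genes lower and 11.7% higher), with a median of -0.60. All 4 genes of fatty acid synthesis were among them, and 1 of the 5 desaturases, Scd2 (-1.60 ± 0.45, adjusted p = 0.0181). With single libraries left out, Elovl6 (adjusted p = 0.0496 by limma) lost its call for 10 of the 12. Fasn (0.0375) lost it for 6, Acaca (0.0364) for 5 and Acly (0.0164) for 1. Leaving out L.J. replicate 2 gave Scd2 a change of -2.16, leaving out L.J. replicate 3 gave -1.01, and it did not pass without busulfan plus L.J. replicate 3 (adjusted p = 0.061). The count lower was 24, with 1 higher, without L.J. replicate 2, 8, with 2 higher, without L.J. replicate 1, 8 without L.J. replicate 3, and 6, 5 and 0 when replicate 1, 2 or 3 of busulfan plus L.J. was left out, and it was also 0 without both control replicate 3 and busulfan plus L.J. replicate 1. Over all 14675 genes, 5837 were lower with every library kept, and 7236, 4613 and 4722 without L.J. replicate 2, 1 or 3. The count over all genes was 2753, 2437 and 0 without busulfan plus L.J. replicate 1, 2 or 3, and 0 without that pair of libraries. The median of the 32 genes turned positive, 0.67, when scaled to Sertoli markers. The interaction, which asks whether the change with L.J. differs between testes with and without busulfan, gave 0 of 32 genes and 0 of 14675 (0%) by limma. At an unadjusted p under 0.05 the counts were 6 of 32 and 182 of 14675 (1.24%), and 4 of the 6 were desaturases. The largest were Scd1 (1.83 ± 0.73) and Thrsp (1.72 ± 0.52), both with an adjusted p of 1. Without L.J. replicate 2 the value of Scd1 was 1.16, and the median over the 32 genes was 0.24 in place of 0.55.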

How the data were processed

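RNA was sequenced from 12 testis libraries, 3 in each of 4 groups taken from the labels. The authors deposited FPKM for each gene in each library, with 2 decimals. The submitters' processing notes name Bowtie 0.12.2 and mm10. How FPKM were computed, with which annotation, and whether libraries were rescaled is not given in the sources used here. Low values showed no common steps, so the depth behind the values is unknown.

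Genes with at least 1 FPKM in at least 3 libraries were kept, 14675 of 21004. Values were transformed as log2(FPKM + 1), which understates the change of low genes. A linear model over all 12 libraries was fitted with limma 3.58.1 with trend in R 4.3.3 (8 residual and 3.44 prior degrees of freedom). Within a comparison, p-values of all tested genes were Benjamini-Hochberg adjusted, with a threshold of 0.05, and the fit was tested on simulated data. Intervals are 95% intervals of the log2 change. Positions are those of RefSeq on GRCm38, where 99.2% of gene identifiers were found, and 26 date-like symbols were replaced by identifier. Figures used Python 3.11.15 and matplotlib 3.10.9.

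The genes and lists were chosen with earlier results of these data known. In each role, the 2 genes with the largest change past the threshold in busulfan against control were given in full by rule. The 5 that did not pass, the ratios of enzymes and the desaturases with L.J. were chosen after their values were seen. Results were recomputed with pseudocounts of 0.1 and 5, without a filter and with 5 FPKM as its minimum, after median, Sertoli-marker or quantile scaling, with replicate number as a block, with only the groups compared, with limma's robust option and no trend, and with libraries left out (control replicate 3 and busulfan plus L.J. replicate 1 together was added after the data were seen, as was the liver list). Replicate numbers were not taken to pair the samples.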

Additional observations from a re-analysis of the deposited data

How the results depend on the processing

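FPKM alone, with no counts, sets the limits: counting error is unknown, low genes such as Thrsp are least precise, and the scale between libraries cannot be set from the data. Replicate numbers were not taken as pairs, under a rule that all 3 same-numbered correlations of deviations exceed 0.1, which no comparison met. The correlations were -0.0509, -0.00949 and -0.117 in busulfan against control, -0.175, 0.759 and 0.62 in L.J. against control, 0.247, 0.0915 and 0.121 for busulfan plus L.J. against busulfan, and -0.0841 to 0.0495 in the others. When L.J. was added to busulfan, 5 of 6 libraries correlated best with their own number, and 4 of 6 did for L.J. alone. The rule therefore cannot show that pairing is absent. With the replicate number as a block 27 genes passed in busulfan against control, 29 in busulfan plus L.J. against control, 15 in busulfan plus L.J. against L.J., and 0 in the other comparisons. Busulfan against control gave 25 to 29 genes (29 being 28 lower and 1 higher) and a median of -1.47 to -1.22 with any single library left out. The median was -0.86 with a pseudocount of 5, -0.85 after quantile normalization, -0.90 with median scaling and 0.01 with Sertoli-marker scaling, where 4 genes passed, all higher. For busulfan plus L.J. against control the medians were -0.93, -0.88, -0.94 and -0.12, and 2 genes passed with Sertoli scaling. For busulfan plus L.J. against L.J., 9 genes passed with no filter, 5 after quantile normalization (4 lower, 1 higher), 9 after median scaling (6 lower, 3 higher; median -0.15), 4 with Sertoli scaling, all higher (median 0.67), and 0 in a fit of the 2 groups or without control replicate 3 and busulfan plus L.J. replicate 1; leaving out single libraries gave 0 to 25 genes, 25 being 24 lower and 1 higher, and medians of -1.02 to -0.35. In busulfan against control, signs turned after quantile normalization for Pmvk (0.47) and Cyp51 (0.07) and after median scaling for Pmvk (0.45), Sqle (0.39) and Cyp51 (0.45). Sertoli scaling turned Hmgcs1 (0.16), Mvk (0.52), Pmvk (1.44), Idi1 (0.33), Fdps (0.93), Sqle (1.47), Lss (0.15), Cyp51 (1.52), Nsdhl (0.43), Sc5d (0.20), Scap (0.05), Srebf2 (0.93), Acaca (0.99), Fasn (0.27) and Elovl6 (0.71). In busulfan plus L.J. against control, Cyp51 and Srebf2 turned after quantile normalization (0.11 and 0.02), Sqle, Cyp51 and Srebf2 after median scaling (0.26, 0.50 and 0.09), and Sqle (1.20), Acaca (0.70), Idi1 (0.53), Cyp51 (1.44), Mvk (0.24), Fdps (0.51), Lss (0.05), Nsdhl (0.33), Sc5d (0.27), Srebf2 (0.99), Fasn (0.05) and Elovl6 (0.58) with Sertoli scaling, which also turned Msmo1 in busulfan plus L.J. against L.J. (0.24). The cause was not tested. Over all genes, 7536 were lower and 1814 higher in busulfan against control, 2761 and 2448 after quantile normalization, 1982 and 3104 after median scaling, 24 and 5998 with Sertoli scaling, and 2413 and 1087 without control replicate 3 and busulfan plus L.J. replicate 1. In busulfan plus L.J. against control, 2571 were lower and 905 higher without that pair of libraries. For busulfan plus L.J. against L.J., 0 of all genes passed in each setting where 0 of the 32 genes did.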
